A study of Arabidopsis thaliana with 14 samples.

Results

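Seed oil of Arabidopsis is represented here by 4 genes: the oleosin genes OLEO3 (AT5G51210) and AT3G01570, and the acyl-ACP thioesterase genes FaTA (AT3G25110) and FATB (AT1G08510). Their probe sets were found by symbol or locus in the platform annotation. Each had 1 probe set on the ATH1 array, among 13513 probe sets that carry the name of a single gene and 22810 in all, and all 4 were bright enough to be tested. The samples are 14 arrays of seeds of the genotype Ws-0 whose cotyledons were bending and measured 100 to 140 µm. The plants were 38 to 46 days old. There were 7 groups with 2 biological replicates each: sections of whole seeds, and the embryo proper, micropylar endosperm, peripheral endosperm, chalazal endosperm, chalazal seed coat and general seed coat cut out by laser microdissection. All groups shared genotype, stage, fixation in ethanol and acetic acid, and paraffin embedding, and none received a treatment. RNA amounts before amplification were 2 to 5 ng for the micropylar endosperm and 5 to 6 ng for the other groups. For the micropylar endosperm, a cell type field of the labels reads embryo proper, while the titles, the source names and the descriptions give micropylar endosperm, and these were followed.

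Oil accumulates in the seed as triacylglycerol inside oil bodies. Fatty acids are built in the plastid on acyl carrier protein (ACP), and acyl-ACP thioesterases end the chain growth by freeing the fatty acid for export. FatA enzymes act mainly on oleoyl-ACP, an unsaturated chain, while FatB enzymes prefer saturated chains such as palmitoyl-ACP. The freed fatty acids are then assembled into triacylglycerol at the endoplasmic reticulum. Oleosins are small proteins with a long hydrophobic hairpin that coat the oil body and keep oil bodies from fusing.

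All values are linear signal intensities, which the authors had scaled to a 2% trimmed mean of 500 per array. The median intensity of an array was 99.07 to 188.1. Across probe sets, r between the replicates of a group ran from 0.867 in the peripheral endosperm to 0.967 in the embryo proper. The ratio of 3′ to 5′ GAPDH control probe sets ran from 2.17 to 7.49, with the highest on micropylar endosperm replicate 3. Summed seed coat markers (6 of 16 listed genes measured) were 32712 to 39714 in the chalazal and 46443 to 52153 in the general seed coat. They were at most 4705 in any embryo or endosperm array. ARA12 was the largest part of the seed coat sums, with means of 18263 and 32819. BAN, DFR, ARA12, AT3G10320 and, narrowly (2605 against 2374), AT2G22900 were higher on every seed coat array than on any embryo or endosperm array. AT3G50990 did not separate the general seed coat (117 to 171) from the chalazal endosperm (108 to 163). Of the embryo markers measured, 2 of 12, YAB3, a YABBY transcription factor, was at 2075 and 2128 in the embryo proper and at most 51.8 in the other compartments. The other, PHV, a homeodomain-leucine zipper factor, did not single out the embryo: it was at 541 and 562 there, 857 and 787 in the peripheral endosperm and 192 and 354 in the chalazal seed coat. The endosperm list had 4 of 12 genes measured and 2 tested. Of the tested ones, KINESIN-13A, whose locus was entered in the list as MPC but carries this other name in the annotation, did not single out the endosperm, with 833 and 708 in the embryo proper, 596 and 623 in the chalazal endosperm and 719 on both general seed coat arrays. AT1G50650, listed as KRS, was at 13772 and 16320 in the peripheral endosperm, 4181 and 1685 in the micropylar endosperm and 139 and 16.02 in the chalazal endosperm. No tested marker of the list singled out the chalazal endosperm, so its label was not checked by markers.

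OLEO3, a structural oleosin of the oil body coat, was among the brightest probe sets of the embryo and of the micropylar and peripheral endosperm. Its intensity was 36004 and 34656 in the embryo proper, 30819 and 29559 in the micropylar endosperm, and 38073 and 37532 in the peripheral endosperm. It was 1998 and 1135 in the chalazal endosperm, 143 and 621 in the chalazal seed coat, and 14012 and 6893 in the general seed coat. The first 3 compartments lay above all arrays of the other 3, and the arrays of the general seed coat lay between them and the chalazal regions without overlap. In relative terms the chalazal endosperm had 4.14% of the peripheral endosperm mean. The chalazal seed coat had 0.378% and 1.64% on its arrays, and the general seed coat had 37.1% and 18.2%. Because each array is bulk tissue, fewer cells with the transcript and less transcript per cell cannot be told apart.

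In limma's fit, differences were taken on the log2(intensity + 32) scale, which understates those of dim genes. A difference was called at an adjusted p under 0.05 and a size of at least 1. OLEO3 was called in 12 of the 15 pairs of compartments, where 29.8% of all tests of a probe set in a pair were called. The count was 9 without general seed coat replicate 2. The 3 pairs without a call were those among the embryo proper and the micropylar and peripheral endosperm. Micropylar minus peripheral endosperm, the widest of these, was -0.32 with a 95% interval from -1.24 to 0.60. Ordered by mean level, the compartments ran from the peripheral endosperm (37803 ± 382, SD, n = 2) through the embryo proper (35330 ± 953) and micropylar endosperm (30189 ± 891) to the general seed coat (10452 ± 5034), chalazal endosperm (1566 ± 610.1) and chalazal seed coat (382 ± 338). The last 3 steps of that order were called, with limma adjusted p of 0.00941, 0.000117 and 0.000877. These use a variance shared by all 7 groups and moderated by limma (SD 0.436, against 0.615 as OLEO3's own residual SD). Between replicates the log2 SD was 1.34 in the chalazal seed coat, 0.72 in the general seed coat and 0.56 in the chalazal endosperm. It was at most 0.043 in the embryo proper and the micropylar and peripheral endosperm.

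The other oleosin gene, AT3G01570, shared the high side with OLEO3 and differed on the low side. Its intensity was 3627 and 2953 in the embryo proper, 7146 and 3601 in the micropylar endosperm, and 4450 and 5927 in the peripheral endosperm. It was 6.32 and 5.80 in the chalazal endosperm, 6.48 and 6.63 in the chalazal seed coat, and 668 and 453 in the general seed coat. On the 4 chalazal arrays AT3G01570 stood between the 6.91 and 8.62 percentiles of the array's probe sets, so its level there is at the dim end of what the array reports. On the general seed coat arrays it stood at the 78.2 and 71.5 percentiles.

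AT3G01570 was called in 11 of the 15 pairs, where 29.8% of all tests of a probe set in a pair were called. The pairs without a call were the 3 among the embryo proper, micropylar and peripheral endosperm, whose arrays overlapped in part, and the pair of chalazal regions. The general seed coat differed from each of the other 5 compartments. Embryo proper minus general seed coat was 2.50 ± 0.37 (SE, limma adjusted p = 5.49e-05), and chalazal minus general seed coat was -3.92 ± 0.37 (limma adjusted p = 2.55e-06). In the chalazal endosperm OLEO3 was still at 1135 or more, while AT3G01570 was at 6.32 or less. That pair of values compares different probe sets, so only the change between compartments is read from it.

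**Figure D1:**
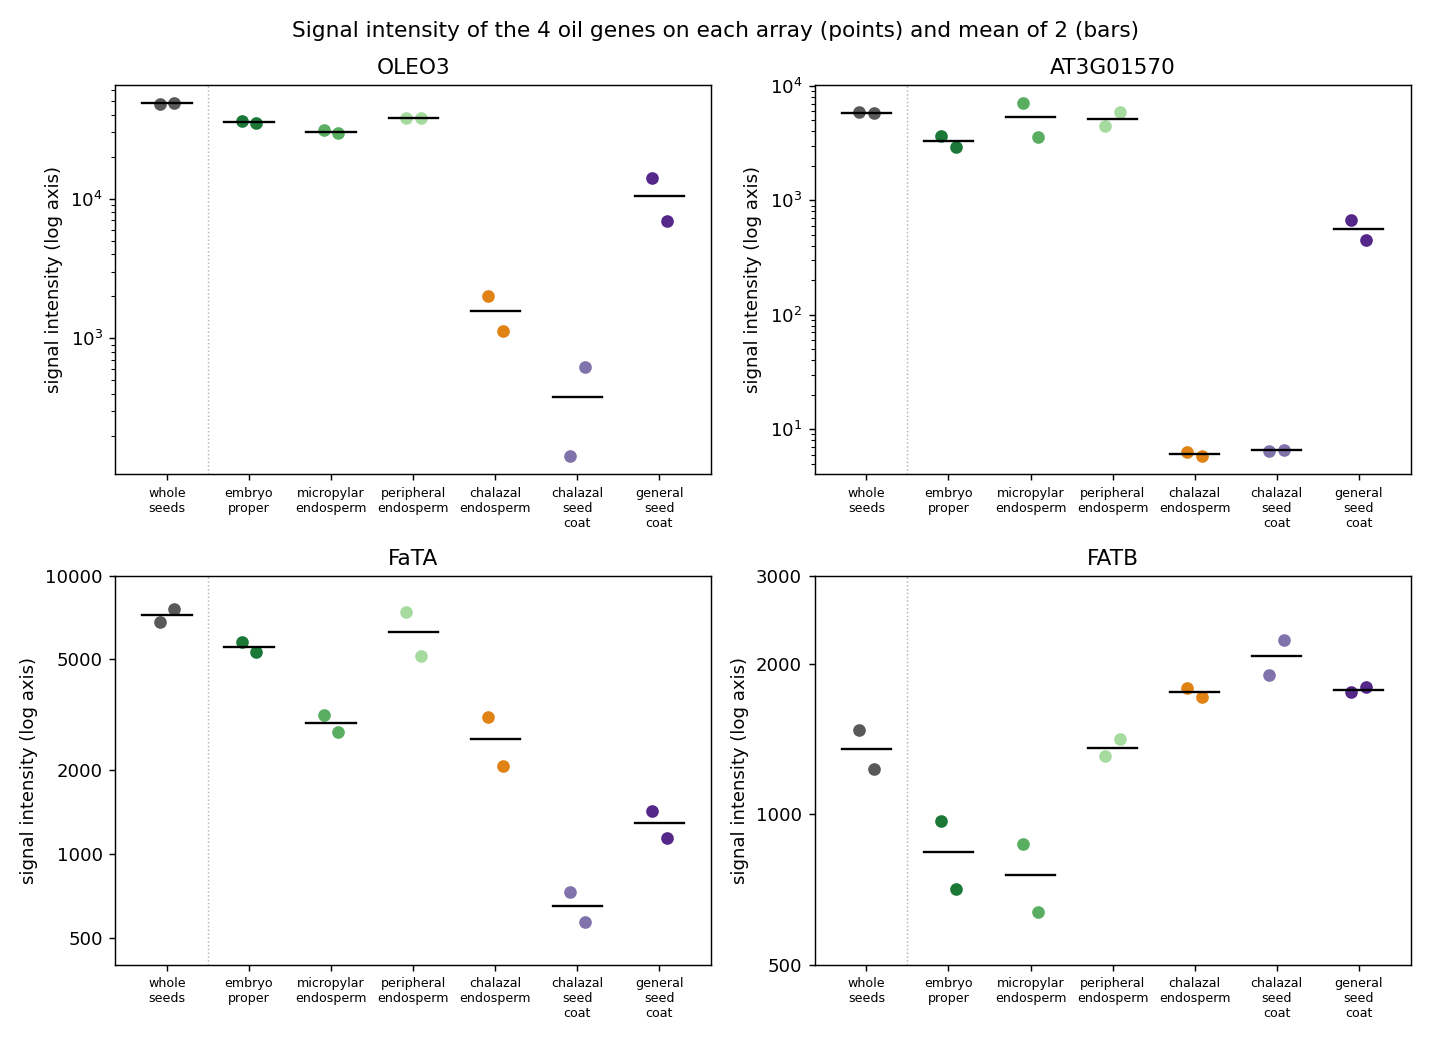
Intensity of OLEO3, AT3G01570, FaTA and FATB on each of the 14 arrays, on log axes, by group, with a different axis range in each panel. Points are arrays and bars are group means. AT3G01570 is at 6.63 or less on all 4 chalazal arrays, and FATB spans only 638 to 2234 over the compartments.

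The chalazal effect, chalazal minus peripheral endosperm against chalazal minus general seed coat, was also compared between the tissues. For AT3G01570 it was -7.09 in the endosperm and -3.92 in the seed coat, a difference of -3.17 ± 0.53 (SE, limma adjusted p = 0.000543). AT3G01570 was 1 of 4 members called, where 21.6% of all probe sets were. With both chalazal regions at the dim end of the array, these effects are limited by the lowest values the array gives. Their difference has the size of peripheral endosperm minus general seed coat (3.15 ± 0.37), so it is not read as a difference between chalazal effects. For OLEO3 the difference of effects was 0.25 ± 0.62, with a 95% interval from -1.05 to 1.55 (limma adjusted p = 0.809). FaTA, at -0.32 ± 0.41, and FATB, at 0.15 ± 0.43, were not called either.

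The general seed coat carried AT3G01570 at 12.9% and 8.73% of the peripheral endosperm mean on its arrays, against the 37.1% and 18.2% of OLEO3. The vicilin-like storage protein gene AT4G36700 had 41.9% and 20.1% in the same comparison, at 14849 and 7148 in the general seed coat against 37323 and 33640 in the peripheral endosperm. Replicate 1 was the higher general seed coat array for OLEO3, AT3G01570 and AT4G36700. AT1G50650 had 5.25% there, at 834 and 745, and YAB3 was at 51.8 and 38.3. The summed embryo list (2 of 12 genes measured) was 48.1 to 68.3 in the general seed coat, against 794 to 870.2 in the peripheral endosperm, and the summed endosperm list, KINESIN-13A included, was 1566 to 1568 against 14984 to 17213. The part that neighbouring endosperm has in these seed coat levels was not tested.

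FaTA, which frees mainly oleic acid, followed a shallower course. Its intensity was 5781 and 5326 in the embryo proper, 3168 and 2741 in the micropylar endosperm, and 7397 and 5132 in the peripheral endosperm. It was 3118 and 2067 in the chalazal endosperm, 732 and 571 in the chalazal seed coat, and 1431 and 1145 in the general seed coat. The chalazal endosperm overlapped the micropylar endosperm and lay above both seed coat regions, unlike the oleosins, which were lower there than in the general seed coat. The chalazal seed coat was lowest on both arrays, at 10.4% of the peripheral endosperm mean.

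FaTA was called in 10 of the 15 pairs, and in 8 without embryo proper replicate 1. Peripheral endosperm (6264 ± 1601, SD, n = 2) and embryo proper (5553 ± 322) were highest, followed by the micropylar (2955 ± 302) and chalazal endosperm (2593 ± 743), the general seed coat (1288 ± 202) and the chalazal seed coat (651 ± 114). No single step of this order was called. Over all 15 pairs, 29.8% of all tests of a probe set in a pair were called. Embryo proper minus micropylar endosperm (0.91, limma adjusted p = 0.0363), chalazal endosperm minus general seed coat (0.97, 0.0128) and chalazal minus general seed coat (-0.95, 0.0294) had adjusted p under 0.05 but missed the required size of 1. Micropylar minus peripheral endosperm was -1.06 ± 0.29 (limma adjusted p = 0.0383), just past the size. FaTA in the chalazal endosperm exceeded the chalazal seed coat by 1.92 ± 0.29 (limma adjusted p = 6.84e-05).

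AT4G13050, the other FatA thioesterase gene of the fixed pathway list, had its own probe set. It was at 8177 and 6847 in the embryo proper, 4269 and 4399 in the micropylar endosperm and 5425 and 6682 in the peripheral endosperm. It was 2650 and 2644 in the chalazal endosperm, 482 and 511 in the chalazal seed coat and 555 and 498 in the general seed coat. As with FaTA, the chalazal endosperm lay above both seed coat regions. Its log2 differences to them were 2.34 ± 0.25 (chalazal seed coat, limma adjusted p = 2.47e-06) and 2.26 ± 0.25 (general seed coat, 2.21e-06). Across the 12 compartment arrays the profiles of the 2 FatA genes correlated with Pearson r = 0.936, and AT4G13050 ranked 12 of 8174 genes by likeness to FaTA. Whether either probe set also binds the other transcript was not tested.

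FATB, which frees mainly saturated fatty acids, ran in the other direction over a narrow range. Its intensity was 969 and 709.9 in the embryo proper, 873 and 638 in the micropylar endosperm, and 1305 and 1414 in the peripheral endosperm. It was 1787 and 1717 in the chalazal endosperm, 1903 and 2234 in the chalazal seed coat, and 1754 and 1793 in the general seed coat. The embryo proper and micropylar endosperm were lowest and overlapped each other, while all 6 arrays of the chalazal endosperm and seed coat regions lay above every other compartment array. The highest compartment mean was 2.74 times the lowest, against 9.62 times for FaTA.

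FATB was called in 6 of the 15 pairs, where 29.8% of all tests of a probe set in a pair were called. All 6 were the embryo proper or the micropylar endosperm against the chalazal endosperm, the chalazal seed coat or the general seed coat. Differences ran from -1.05 ± 0.31 (embryo proper minus chalazal endosperm, limma adjusted p = 0.0116) to -1.43 ± 0.31 (micropylar endosperm minus chalazal seed coat). Without embryo proper replicate 2 or micropylar endosperm replicate 3, 4 pairs were called. The peripheral endosperm was called in no pair. No step between neighbours in the order of means was called.

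FaTA was set against FATB on the same array, with 32 added to each intensity. The log2 ratio of FaTA to FATB was 2.54 and 2.85 in the embryo proper and 1.82 and 2.05 in the micropylar endosperm. In the peripheral endosperm it was 2.47 and 1.84. It was 0.79 and 0.26 in the chalazal endosperm, -1.34 and -1.91 in the chalazal seed coat, and -0.29 and -0.63 in the general seed coat. The ratio of different probe sets has no absolute meaning. Because of the added 32, the scale of the array does not cancel exactly in the ratio's change between groups. Relative to the chalazal seed coat, the ratio was 20.0 times higher in the embryo proper, 13.7 times in the peripheral, 11.8 times in the micropylar and 4.45 times in the chalazal endosperm, and 2.24 times in the general seed coat. The ratio is given as a description and was not tested.

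**Figure D2:**
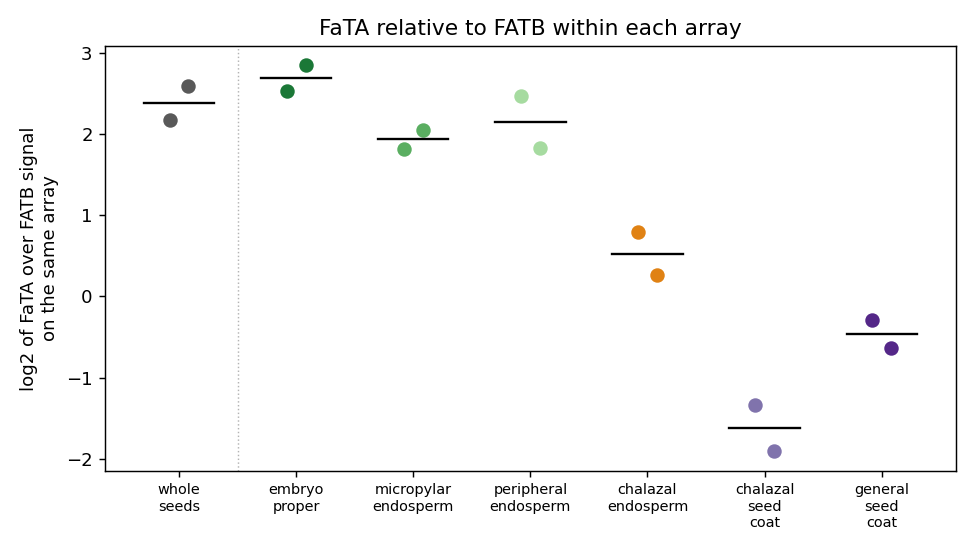
Log2 ratio of FaTA to FATB within each of the 14 arrays, by group, with 32 added to each intensity. Points are arrays and bars are group means. The ratio lies between 1.82 and 2.85 in the embryo proper and the micropylar and peripheral endosperm, and between -1.91 and -0.29 in the seed coat regions.

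Pair by pair, the 4 genes separated the compartments unevenly. Between the embryo proper and the micropylar endosperm 0 of the 4 genes were called, where 17.3% of all probe sets were, and the embryo proper against the peripheral endosperm also gave 0 of 4 (22.3%). All 4 were called in embryo proper minus chalazal endosperm (37%), minus chalazal seed coat (40.6%) and minus general seed coat (37.3%), each time 3 higher and FATB lower. Micropylar minus peripheral endosperm gave 1 of 4, FaTA, lower (6.31%).

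For the micropylar endosperm, 3 of 4 were called against the chalazal endosperm (36.5%), both oleosins higher and FATB lower. Against either seed coat region, chalazal (32.3%) or general (29.2%), all 4 were called, with FATB lower and the rest higher. The peripheral endosperm had 3 of 4 called, all higher, against the chalazal endosperm (34.9%), chalazal seed coat (35.2%) and general seed coat (31.6%), with FATB the exception in each. Chalazal endosperm minus chalazal seed coat gave 2 of 4, OLEO3 and FaTA, higher (33.5%). Chalazal endosperm minus general seed coat gave 2 of 4, both oleosins, lower (37%), and chalazal minus general seed coat gave the same 2, lower (16.4%).

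Set against the mean of the other 5 compartments, the embryo proper had 3 of 4 genes higher and 0 lower (17.2% and 15.1% of all probe sets). OLEO3 was 2.64, AT3G01570 2.82 and FaTA 1.40 higher, and FATB, at -0.79, missed the required size. The peripheral endosperm also had 3 higher and 0 lower (9.98% and 13.9%), and the micropylar endosperm had 2 higher, both oleosins, and 0 lower (10.4% and 7.49%). FaTA was 0.31 in the micropylar endosperm (limma adjusted p = 0.335). FATB there, at -0.96 (limma adjusted p = 0.00832), missed the required size.

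The chalazal endosperm had 0 genes higher and 2 lower, both oleosins (16.9% and 20.9%), with FaTA at 0.06. The chalazal seed coat had 0 higher and 3 lower (16.1% and 13.7%): OLEO3 at -5.41 ± 0.34, AT3G01570 at -4.89 ± 0.29 and FaTA at -2.25 ± 0.22. The general seed coat had 0 higher and 1 lower, FaTA at -1.11 ± 0.22 (14.3% and 12.2%), a call that was lost without general seed coat replicate 2 (-0.95). OLEO3 there was 0.43 and AT3G01570 -0.19, neither called.

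The split seen for the oleosins was also put into a single contrast, the mean of the embryo proper and the micropylar and peripheral endosperm minus the mean of the chalazal endosperm and both seed coat regions. It was chosen after earlier results had shown this pattern for oil body genes, so its values describe the split and are no independent evidence for it. OLEO3 was 4.31 ± 0.25 higher, AT3G01570 5.55 ± 0.22 higher and FaTA 1.83 ± 0.17 higher, while FATB was -0.95 ± 0.18 (limma adjusted p = 0.000262), short of the required size. Thus 3 of 4 were called higher and 0 lower, where 16.5% of all probe sets were higher and 18.8% lower, and the median over all probe sets was -0.14. FATB passed the size without embryo proper replicate 1 (-1.02) or micropylar endosperm replicate 1 (-1.02).

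**Figure D3:**
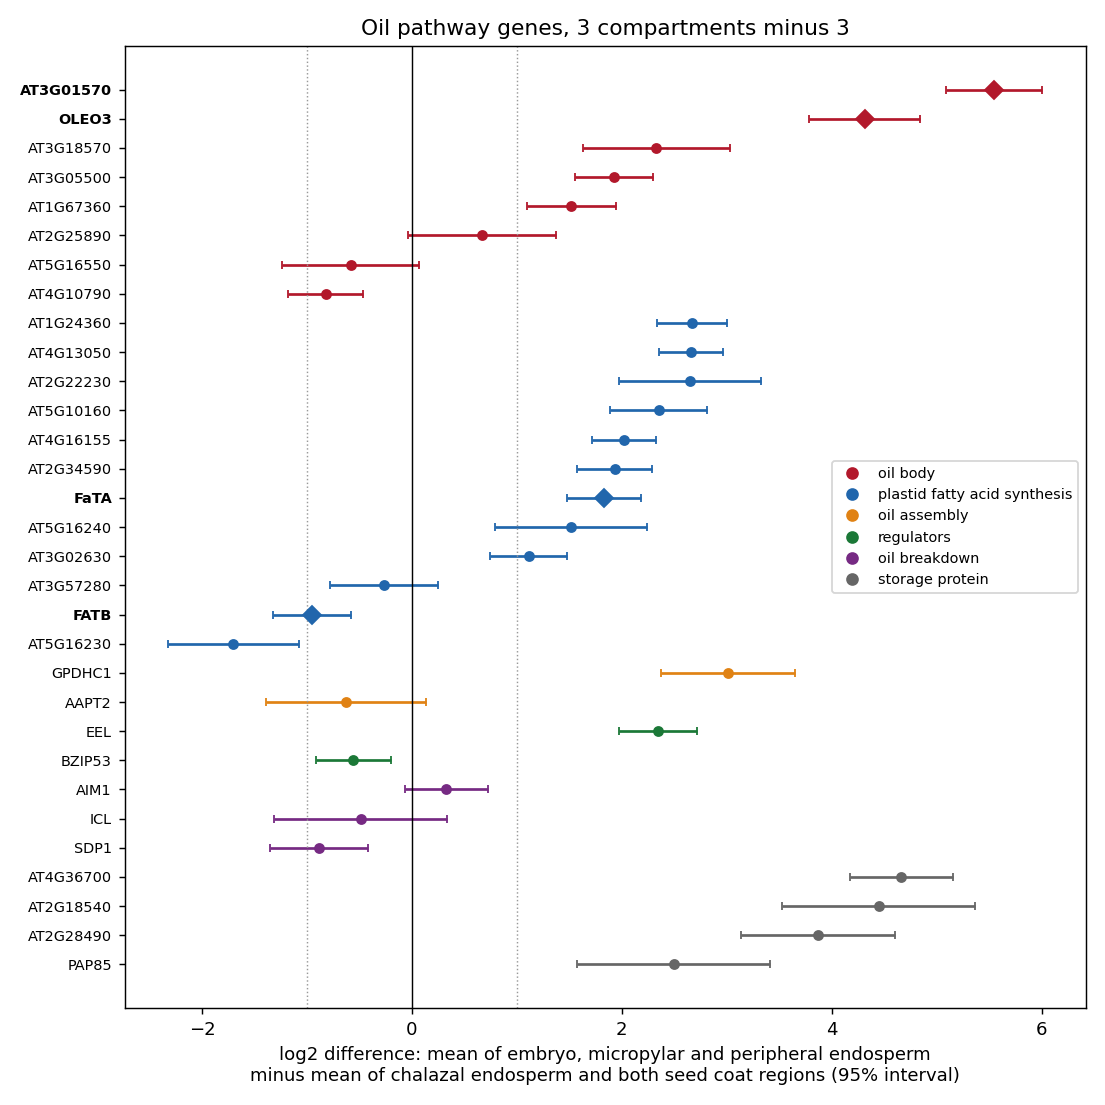
Log2 difference of the mean of embryo proper, micropylar and peripheral endosperm minus the mean of chalazal endosperm and both seed coat regions, for the 4 genes and the other tested genes of the oil and storage lists. Points are estimates (diamonds for the 4 genes), bars are 95% intervals, colours are lists and dotted lines mark differences of -1 and 1. AT3G01570 has the largest difference at 5.55, and AT5G16230 lies on the opposite side at -1.70.

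The wider pathway was read from 9 gene lists on oil and storage with 179 genes, of which 35 were measured by a probe set of a single named gene and 31 were tested. The lists for pollen coat oleosins, carbon supply and surface lipids had 0 genes measured. Of all probe sets, 16.5% were called higher in the split contrast and 18.8% lower, with a median of -0.14. Of 6 other oil body genes tested, 3 were called higher and 0 lower, with a median of 1.09. They were AT3G18570, a gene of the oleosin family (2.33 ± 0.33), and AT3G05500 (1.93 ± 0.18) and AT1G67360 (1.52 ± 0.20), which encode lipid droplet-associated proteins. AT2G25890, another oleosin family gene, was not called at 0.67 ± 0.33 (limma adjusted p = 0.104), and AT4G10790, listed as PUX10, which helps remove ubiquitinated oleosins, was not called at -0.82 ± 0.17. The remaining one, AT5G16550, listed as LDIP, a partner of the lipid droplet-associated proteins, was at -0.58 ± 0.31.

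AT3G18570 separated the same compartments in the split contrast, but unlike for both oleosin members no difference between the seed coat regions was called. It was at 344 and 320.0 in the embryo proper, 309 and 355 in the micropylar endosperm and 282 and 356 in the peripheral endosperm. In the chalazal endosperm it was at 4.73 and 38.2, in the chalazal seed coat at 94.7 and 25.7 and in the general seed coat at 111 and 16.6. The embryo proper and the micropylar and peripheral endosperm did not overlap the rest, and the seed coat regions overlapped each other (chalazal minus general 0.04 ± 0.58, limma adjusted p = 0.978). AT3G18570 was dim there, at the 40.8 and 20.5 percentiles in the chalazal and 40.3 and 17.2 in the general seed coat. With replicates this far apart, a difference between the seed coat regions is not excluded. AT1G67360 differed from the oleosins in the embryo proper, with 1336 and 1058, against 6499 and 6660.1 in the peripheral and 5764 and 4521 in the micropylar endosperm. AT3G05500 kept 4244 and 4989 in the chalazal endosperm, against 939.5 and 909 in the chalazal seed coat and 897 and 467 in the general seed coat. AT2G25890 was called higher in the embryo proper against the mean of the other 5 compartments (1.79 ± 0.45, limma adjusted p = 0.00482). It was called lower in the chalazal endosperm. Of all probe sets, 17.2% and 20.9% were called so. AT2G25890 was at 397 and 313 in the embryo proper, 36.2 and 62.2 in the peripheral endosperm and 159 and 139 in the general seed coat.

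Of 10 other plastid fatty acid synthesis genes tested, 8 were called higher in the split contrast (16.5% of all probe sets) and 1 lower (18.8%). Their median was 1.98. AT1G24360, a ketoacyl-ACP reductase gene, was 2.67 ± 0.16 higher, and the hydroxyacyl-ACP dehydratase genes AT2G22230 and AT5G10160 were 2.65 ± 0.32 and 2.35 ± 0.22 higher. The FatA gene AT4G13050 was 2.66 ± 0.15 higher, and AT4G16155 and AT2G34590, genes of the plastid pyruvate dehydrogenase complex that makes acetyl-CoA, were 2.02 ± 0.14 and 1.93 ± 0.17 higher. AT3G57280, listed as FAX1, which exports fatty acids from the plastid, was not called at -0.26 ± 0.24. Against the mean of the other 5 compartments, these 10 genes had a median of -0.26 in the chalazal endosperm. There 1 was called higher and 1 lower (16.9% and 20.9% of all probe sets). In the chalazal seed coat the median was -2.21, with 0 higher and 6 lower (16.1% and 13.7%). In the general seed coat it was -1.21, also with 0 higher and 6 lower (14.3% and 12.2%).

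The gene lower in the split contrast was AT5G16230, one of the acyl-ACP desaturase genes, whose enzymes introduce a double bond into an ACP-bound chain. It was at 62.6 and 3.78 in the embryo proper, 2339 and 2022 in the micropylar endosperm and 914 and 2241 in the peripheral endosperm. The chalazal endosperm had 5347 and 7250.2, the chalazal seed coat 1849 and 819 and the general seed coat 656 and 931. It was thus highest in the chalazal endosperm and lowest in the embryo proper, with a difference of -4.98 ± 0.39 for the embryo proper against the mean of the other 5 compartments (limma adjusted p = 9.88e-08). The other desaturase genes tested, AT3G02630 (1.11 ± 0.17) and AT5G16240 (1.51 ± 0.34), were called higher in the split contrast.

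Among genes of other steps, GPDHC1, a glycerol-3-phosphate dehydrogenase of oil assembly, was 3.01 ± 0.30 higher in the split contrast, and AAPT2, an aminoalcohol phosphotransferase, was not called at -0.62 ± 0.36. In the split contrast the bZIP factor EEL was 2.34 ± 0.18 higher, while BZIP53 was not called at -0.56 ± 0.17. EEL was at 9931 and 10904 in the chalazal endosperm, overlapping the peripheral endosperm at 9594 and 19968. In the seed coat regions it was at 1363 to 1489 (chalazal) and 1269 to 2181 (general). Against the mean of the other 5 compartments, BZIP53 was called higher in the chalazal seed coat (1.48 ± 0.23, limma adjusted p = 7.07e-05). It was called lower in the embryo proper (-1.03). Of all probe sets, 16.1% and 15.1% were called so. Of 3 mobilisation genes tested, 0 were called in the split contrast, where 16.5% of all probe sets were higher and 18.8% lower. The oil body lipase gene SDP1 was at -0.88 ± 0.22, AIM1, of fatty acid oxidation, at 0.33 ± 0.19 and ICL, isocitrate lyase, at -0.49 ± 0.39. In the chalazal seed coat SDP1 was called higher against the mean of the other 5 compartments (1.56 ± 0.30, limma adjusted p = 0.000619). In the embryo proper SDP1 was called lower (-1.21). Shares of all probe sets called so were 16.1% and 15.1%. SDP1-LIKE was measured but too dim to be tested, with its highest compartment mean, 165, in the general seed coat. All 4 tested storage protein genes were called higher in the split contrast (16.5% of all probe sets), with a median of 4.16. AT1G03890, listed as CRU2, was measured but too dim to be tested, with means of 8.75 in the embryo proper and 45.4 in the peripheral endosperm. AT4G36700, at 4.66 ± 0.23, lay between OLEO3 and AT3G01570, followed by AT2G18540 (4.45 ± 0.44), AT2G28490 (3.87 ± 0.35) and PAP85 (2.50 ± 0.44). Of these 4, only AT4G36700 was called higher in the peripheral endosperm against the other 5 compartments (9.98% of all probe sets). There PAP85, AT2G28490 and AT2G18540 had 14.9%, 13.4% and 19.3% of the embryo proper mean. Their replicates there lay far apart, at 33.7 and 535 for PAP85, 101 and 589 for AT2G28490 and 887 and 6103 for AT2G18540.

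**Figure D4:**
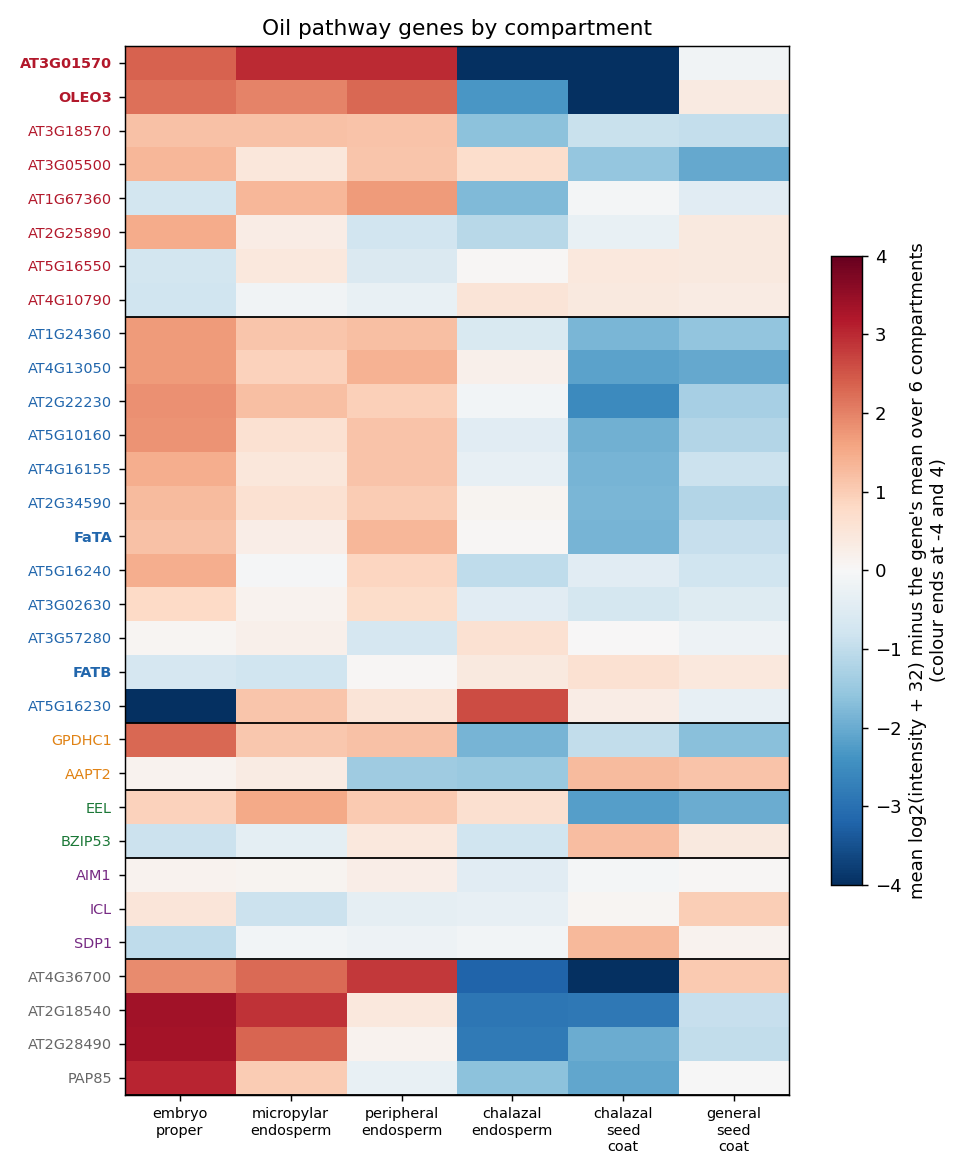
Mean log2(intensity + 32) of the 4 genes and the other tested oil and storage genes in each compartment, after subtracting each gene's mean over the 6 compartments. Rows are genes by list, columns are compartments, and the colour ends at -4 and 4. OLEO3, AT3G01570 and the 8 plastid fatty acid synthesis genes called higher in the split contrast have higher means over the embryo proper and the micropylar and peripheral endosperm than over the other compartments, while FATB is low in the embryo proper and micropylar endosperm and AT5G16230 is lowest in the embryo proper.

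Whole seeds held more of 3 members than the plain mean of the compartments. The whole seed arrays had 47954 and 48704 for OLEO3, 5863 and 5763 for AT3G01570, 6799 and 7596 for FaTA, and 1472 and 1231 for FATB. OLEO3 was above all 12 compartment arrays on both whole seed arrays, as were 1.06% of all probe sets, and the other 3 genes overlapped the compartments. Whole seeds minus the mean of the 6 compartments was 2.65 ± 0.33 for OLEO3, 3.17 ± 0.29 for AT3G01570 and 1.54 ± 0.22 for FaTA on the log2 scale. These 3 of 4 genes were called, where 7.42% of all probe sets were called. FATB was 0.02 (limma adjusted p = 0.969). A mean of log2 values lies below the log2 of the arithmetic mean, the more so for genes uneven over the compartments. This contrast therefore runs higher for such genes, while the linear ratios below use the arithmetic mean.

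On the linear scale, the whole seed level was 2.51 times the arithmetic mean of the compartments for OLEO3, 2.42 times for AT3G01570, 2.24 times for FaTA and 0.949 times for FATB. The median of that ratio over all tested probe sets was 0.925. OLEO3 was 1.28 times, FaTA 1.15 times and AT3G01570 1.08 times the highest compartment mean, and FATB was 0.653 times. With 32 added to each intensity, the log2 ratio of FaTA to FATB was 2.18 and 2.59 in whole seeds. These values lay within the range of the embryo proper and the micropylar and peripheral endosperm.

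Genes with the profile most like each member were taken by the Pearson correlation of log2(intensity + 32) over the 12 compartment arrays, among 8174 tested genes. This is a description over 6 groups, and the arrays share amplification and scaling. For OLEO3 they were PRK, phosphoribulokinase of the Calvin cycle (r = 0.989), AT4G36700 (0.987), AT2G34700 (0.977) and AT4G30660 (0.971). For AT3G01570 they were AT2G34700 (0.987), AT1G72030 (0.984), AT2G26500 (0.982) and PSBW, a photosystem II subunit (0.975). AT2G34700 was thus among the 4 for both oleosins.

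For FaTA the most alike genes were AT1G52670 (0.971), AT4G16155 (0.970), AT2G38550 (0.964) and AT4G23740 (0.961), of which AT4G16155 is the plastid pyruvate dehydrogenase gene named above. For FATB they were AT5G61530 (0.956), AT5G15640 (0.944), AT3G50610 (0.938) and AT3G05280 (0.928). Among the members themselves, OLEO3 and AT3G01570 correlated with r = 0.946, and AT3G01570 ranked 18 of 8174 for OLEO3. OLEO3 and FaTA correlated with r = 0.792, and AT3G01570 and FaTA with r = 0.717. FATB correlated negatively with all 3, from -0.76 (AT3G01570) to -0.64 (FaTA).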

How the data were processed

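Seed compartments were cut from paraffin sections with a Leica laser microdissection system, RNA was amplified and labelled with biotin, and each sample was hybridised to an ATH1 array, per the labels' protocols. Linear signal intensities from GCOS (version not given in the sources used here) were deposited, per the submitters' processing notes. The scaling to a 2% trimmed mean of 500 was found from the values. Detection calls and probe-level data were not used here, and the number of arrays limits the precision.

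The members, gene lists, contrasts and alternatives were chosen with earlier results of these data known. Samples were grouped by titles, sources and descriptions. Of 22746 probe sets without controls, 14765 exceeded their array's median in both replicates of some group and were tested. Log2(intensity + 32) was fitted by lmFit and intensity-trended eBayes in limma 3.58.1 (R 4.3.3), in a single fit of 7 group means over all 14 arrays. Benjamini-Hochberg adjustment ran over all tested probe sets in each contrast. P-values rest on the spread between biological replicates, pooled over all 7 groups and moderated by eBayes, and not on the compared groups alone. The fit was tested on simulated data.

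Genes were named from GEO's platform annotation, and 13436 of 13513 probe sets with a single gene were found in RefSeq's gene table of TAIR10.1, from which only names were taken. Named are the members and up to 4 genes per oil list called against the mean of the other 5 compartments with the largest differences. Also named are every measured gene of an oil or storage list with 5 or fewer, and the 4 genes most like each member. Other list genes were named after their values were seen. Alternatives were the pseudocount, filter, normalization, intensity trend, multiple-testing family, call size, whole seed arrays left out, each array left out and the replicate number as a block.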

Additional observations from a re-analysis of the deposited data

Results flagged for a closer look

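For AT3G01570, the test of the interaction in the fit gave unequal chalazal effects in the endosperm and the seed coat. Chalazal minus peripheral endosperm was -7.09 and chalazal minus general seed coat was -3.92 on the log2(intensity + 32) scale, a difference of -3.17 ± 0.53 (SE, limma adjusted p = 0.000543). All 4 chalazal arrays had values of 6.63 or less, at the dim end of the array, so both effects are limited by the lowest values it gives and depend on the pseudocount of 32. The difference has the size of peripheral endosperm minus general seed coat (3.15 ± 0.37) and does not show that the chalazal effects differ.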

How the results depend on the processing

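Under other pseudocounts, filters, normalizations, no intensity trend and without the whole seed arrays, values of the 4 genes kept their direction and side of the threshold except these. AT3G01570 in the general seed coat against the other 5 compartments was 0.70 with log2(intensity + 1), and FATB in whole seeds was -0.40 with arrays scaled to a common median. Neither was called in any setting. With a filter above the median on all 14 arrays, 5 plastid fatty acid synthesis genes were higher in the split contrast instead of 8, and OLEO3 and AT3G01570 were not tested. Over these settings FaTA was called in 9 to 11 pairs (13 with no minimum size) and FATB in 4 to 6. Median scaling moved the median of all probe sets by 0.21 in the split contrast and by -0.37 for whole seeds, where it took the share of higher probe sets to 42.1%, against 85.8%.

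Leaving out each array in turn gave, against the other 5 compartments, -1.004 to -0.57 (FATB, embryo proper), -1.18 to -0.75 (FATB, micropylar endosperm), -0.016 to 0.097 (FATB, peripheral endosperm), -0.23 to 0.35 (FaTA, chalazal endosperm) and, in the general seed coat, -0.080 to 0.94 (OLEO3), -0.45 to 0.078 (AT3G01570) and -1.26 to -0.95 (FaTA). FATB ran from -0.11 to 0.15 in whole seeds and from -1.02 to -0.88 in the split contrast. The number of pairs called ran from 9 to 12 for OLEO3, 11 to 11 for AT3G01570, 8 to 11 for FaTA and 4 to 6 for FATB. Replicate numbers did not pair the samples: deviations of same-numbered arrays correlated between -0.03 and 0.04 over 15 pairs of groups. With the replicate number as a block, FATB in whole seeds was -0.0103, and FATB was called in 4 pairs. Of the 4 genes most like each member, Spearman correlation kept 0 for OLEO3, 1 for AT3G01570, 3 for FaTA and 0 for FATB. Correlation over 6 means kept 2, 2, 2 and 0 in the same order. The causes were not tested.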
